A study of Sus scrofa with 5 samples.

Results

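The naive-like T cells of the piglet cecum were single cells that carried RNA of the T cell receptor complex together with LEF1 and, in most of them, CCR7 or S1PR1, genes known from T cells that have not yet met antigen. A cell was taken if it had at least 200 detected genes, at least 1 unique molecular identifier (UMI, 1 captured RNA molecule) of CD3E or CD3G, at least 1 UMI of LEF1 and at least 2 UMIs over LEF1, CCR7 and S1PR1. It was left out if it held any UMI of the B cell genes MS4A1 or CD79B, more than 1 UMI over the activation genes TNFRSF4, TNFRSF18 and ICOS, or more than 1 UMI over the cytotoxic genes XCL1, KLRK1, CRTAM and ZNF683. These conditions found 511 cells among 72701 kept cells, of which 22092 were T cells (CD3E or CD3G present and no B cell UMI). The d0 library held 20 of the naive-like cells, the d1 library 16, the d7 library 353, the d14 library 86 and the d21 library 36.

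The study followed the development of the cecum after birth by single-cell RNA sequencing. Male large white piglets, fed only milk of their mothers, were sampled on the day of birth (d0), after 1 day and at d7, d14 and d21, and for each of these ages a single library was made from the pooled cecal cells of 5 animals. The labels name no genetic change and no treatment, so the groups are ages, and since each age is 1 library, age and library cannot be told apart. The 5 libraries held 83394038, 80196009, 47921183, 91863866 and 69522315 UMIs in the kept cells, in the order of age.

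Naive T cells leave the thymus and circulate between blood and lymphoid tissue, where they enter lymph nodes and Peyer's patches with the help of the chemokine receptor CCR7 and leave again along a gradient of sphingosine 1-phosphate through S1PR1. Their quiescent state is kept by transcription factors such as LEF1, TCF7, KLF2, FOXP1 and BACH2, and IL7R gives them a survival signal. After activation by antigen, T cells lose much of this program and take up effector genes, and those that settle in the gut wall express retention receptors such as the integrin ITGAE.

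LEF1 lies on chromosome 8 at 113824511 to 113944078, CCR7 on chromosome 12 at 21857286 to 21869211, S1PR1 on chromosome 4 at 117064632 to 117069724 and CD3E on chromosome 9 at 45619730 to 45633972 (RefSeq annotation of Sscrofa11.1). Since these genes chose the cells, their values are a description. Below, the level of a gene is its UMI count per 10000 UMIs of the same cells. The LEF1 level of naive-like cells was 3.06, 4.02, 4.57, 3.75 and 4.16 in the order of age. CCR7 was at 1.53, 2.10, 3.67, 2.63 and 1.02, and S1PR1 at 1.53, 2.44, 2.82, 2.61 and 2.67. CCR7 was thus lowest at d21 and highest at d7. Of the 511 cells, 331 (64.8%) held CCR7, 321 (62.8%) held S1PR1, 196 held all 3 genes, and 55 qualified by LEF1 alone. In the d21 library only 10 of 36 cells held CCR7 (27.8%), against 253 of 353 at d7 (71.7%), so at d21 the label rests on LEF1 and S1PR1.

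Just inside the threshold were 121 cells with exactly 2 UMIs over LEF1, CCR7 and S1PR1 and a median of 2806 UMIs per cell. A further 101 cells had 3 such UMIs and 289 had 4 or more. Just outside were 254 cells with a single LEF1 UMI and neither of the other genes, with a median of 2464 UMIs. Another 321 cells had at least 2 UMIs over CCR7 and S1PR1 but no LEF1. Of 984 T cells that met the LEF1 condition, 326 failed the condition on activation genes, which left 658, and 239 failed the one on cytotoxic genes. Some cells failed both, and 511 passed both.

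The d0 and d1 libraries stood apart and held few members. At d0 the naive-like cells carried 50.6 UMIs of 6 epithelial genes per 10000, led by the keratin KRT8 at 23.5, with 5 of 6 genes seen (OLFM4 at 0) and 60.3% of the UMIs in 1 cell. At d1 they carried 44.7 UMIs of 10 myeloid and dendritic genes, led by the complement gene C1QA at 20.1, with 98.4% in 1 cell and LYZ, CD14 and FCN1 at 0. The same library held 21.1 UMIs of 5 stromal genes, led by COL3A1 at 8.56 with 71.9% in 1 cell, and 14.0 of 5 endothelial genes, led by PLVAP, with PECAM1 at 5.76 and LYVE1 and PROX1 at 0. Cells with at least 3 UMIs of a B cell, plasma cell, myeloid, epithelial, stromal or endothelial list were counted, with CST3, CALD1 and CD74 left out. They were 6 of 20 cells at d0, 7 of 16 at d1 (43.8%), 42 of 353 at d7 (11.9%), 17 of 86 at d14 (19.8%) and 3 of 36 at d21 (8.33%). With CD74 counted, the B cell list alone reached 3 UMIs in 24 of 86 cells at d14 and 10 of 36 at d21. The erythroid gene HBB, also left out, reached 3 UMIs in 10 of 353 cells at d7. The comparisons between kinds of T cell used d7, d14 and d21, where each class held at least 20 cells. Of the B cell markers, CD79A and CD22 were at 0 in the naive-like cells of every library, and the thymocyte genes RAG1 and RAG2 were at 0 as well.

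Naive-like cells had a median of 2626, 2826, 3884, 4014 and 3022 UMIs in the order of age, and the deepest held 47555. Other T cells, which met every condition except the one on LEF1, had 2070, 2674, 1606, 2948 and 1878. The median share of mitochondrial UMIs was 6.58%, 6.41%, 4.19%, 4.57% and 4.71% in naive-like cells against 7.00%, 6.62%, 10.4%, 5.54% and 8.41% in other T cells. Naive-like cells were thus deeper in every library and had the lower mitochondrial share in every library, most clearly at d7. Doublets were not removed. Of the 511 barcodes, 8 also occurred among the kept barcodes of another library (1.57%), as did 1.56% of all kept barcodes, and 0 were naive-like in more than 1 library.

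Naive-like cells made up a larger part of the T cells at d7 than in any other library. Their share of T cells was 3.13% at d0 (exact 95% interval 1.92 to 4.79), 2.75% at d1 (1.58 to 4.43), 8.91% at d7 (8.04 to 9.84), 1.25% at d14 (1.00 to 1.55) and 0.358% at d21 (0.251 to 0.496). The d7 interval lay above all others and the d21 interval below all others, whereas those of d0 and d1 overlapped. Of all kept cells, naive-like cells were 0.131%, 0.113%, 3.44%, 0.532% and 0.213% in the same order, so that by this measure d1 and not d21 was lowest. The intervals of d0 (0.0803 to 0.203), d1 (0.0647 to 0.184) and d21 (0.149 to 0.295) overlapped, so these libraries cannot be ranked by it. The order at d7, d14 and d21 was the same when every cell was thinned to 1000 UMIs, with 3.77%, 0.340% and 0.108% of T cells, although thinning removed most members. The intervals cover counting error only, and a share of cells can change because these cells change in number or because other T cells do, which these data cannot tell apart.

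**Figure D1:**
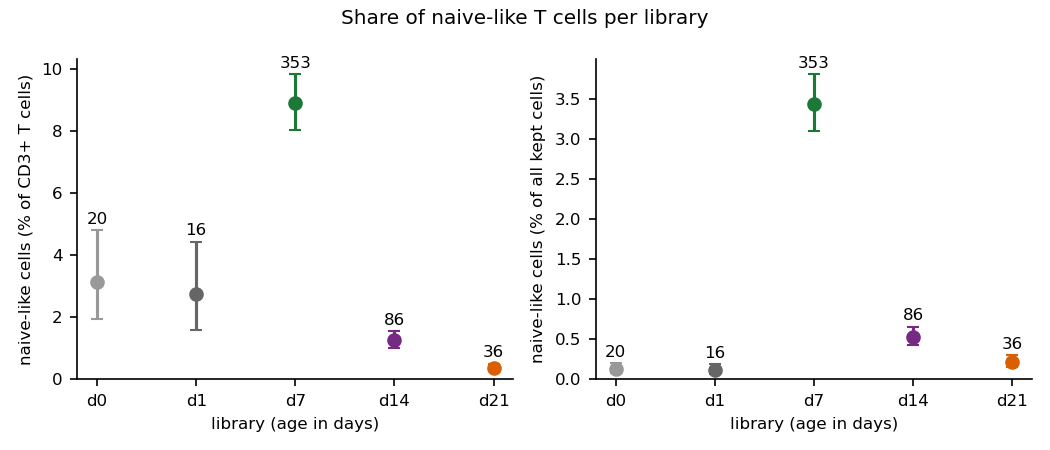
Naive-like cells as a percent of the T cells of each library (d0, d1, d7, d14 and d21, 1 library each), with exact 95% binomial intervals as bars. The d7 library stands at 8.91% and every other library at 3.13% or less.

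The plot of shares shows the high point at d7 and the low values at d14 and d21. The number of T cells in the libraries went from 639 and 581 at d0 and d1 to 3962, 6866 and 10044 at d7, d14 and d21, while the number of naive-like cells was highest at d7.

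Which other genes set the naive-like cells apart from other T cells was examined by summing UMIs per library and class and comparing the classes with edgeR's quasi-likelihood test, the library as a block. The 3 libraries serve as replicates of a class, although they also differ in age. The genes of the rule were left out, but cells were picked by their own counts, so that a p here measures how alike the difference was in 3 libraries and is not independent support for the label. Of 12402 genes tested, 823 were higher in naive-like cells (6.64%) and 1536 lower (12.4%) at an adjusted p under 0.05, or 19.0% in all, with a median log2 fold change of −0.12 over all genes. Without the library block the balance turned, with 232 genes higher and 154 lower. Without the d7 library, which held most naive-like cells, 498 genes passed.

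Of 10 transcription factors known from naive T cells, 9 were higher in naive-like than in other T cells and none was lower, with a median log2 fold change of 1.17. TCF7 (chromosome 2, 136422740 to 136456323), the partner of LEF1 in T cell identity, had levels of 5.01, 3.08 and 2.20 in naive-like cells at d7, d14 and d21 against 1.45, 0.872 and 1.08 in other T cells. KLF2 (chromosome 2, 61270733 to 61273037), which drives transcription of S1PR1, was at 6.53, 8.84 and 6.59 against 2.09, 2.53 and 2.02. For both genes each naive-like value lay above each value of the other T cells. The log2 fold change by edgeR was 1.73 ± 0.18 for TCF7 (SE, n = 3 libraries, adjusted p = 3.41e-05) and 1.79 ± 0.18 for KLF2 (adjusted p = 3.37e-05).

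FOXP1, a keeper of T cell quiescence, was at 2.81, 1.99 and 1.73 in naive-like cells and at 1.16, 1.02 and 0.891 in other T cells (log2 fold change 1.19 ± 0.13). BACH2, which restrains effector differentiation, was at 0.381, 0.581 and 0.470 against 0.155, 0.0746 and 0.143 (1.98 ± 0.30). SATB1, a chromatin organizer of T cell development, was at 2.01, 0.781 and 0.784 against 0.589, 0.314 and 0.368 (1.65 ± 0.20). In these 3 genes the naive-like values again lay above all values of the other T cells, and SATB1 was much higher at d7 than later. FOXO1, ETS1, IKZF1 and ZEB1 were higher by 1.16, 0.82, 0.88 and 0.86 on the log2 scale, whereas BCL11B, at 0.0444, 0.0893 and 0 in naive-like cells, did not pass the test. TCF7, KLF2, FOXP1 and BACH2 passed under each of 10 alternative settings. With cells left out that held at least 2 UMIs of other cell types, 5 of 9 tested factors passed. At 1000 UMIs per cell it was also 5 of 9. ETS1, FOXO1, IKZF1 and ZEB1 lost their calls in both of these settings. The count without the library block was 7 of 10. Without the d7 library, 7 of 10 passed, and IKZF1 (adjusted p = 0.277) and ZEB1 (0.18) did not. ZEB1 also missed the threshold without d21 (0.0802).

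**Figure D2:**
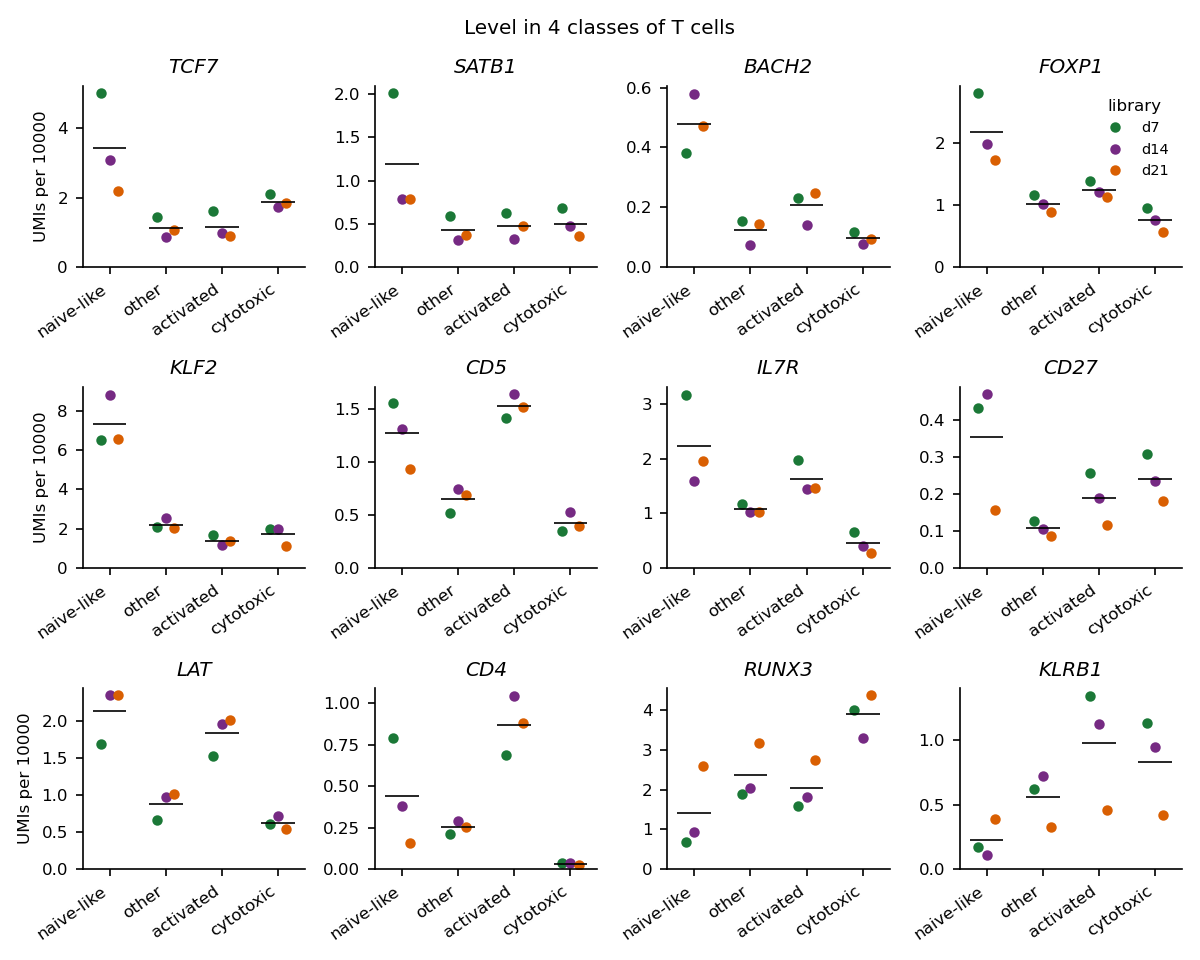
Levels of 12 genes (UMIs per 10000 UMIs) at d7, d14 and d21 in naive-like, other, activated-marked and cytotoxic-marked T cells. Each point is 1 library and each bar the mean of 3 libraries, and TCF7, SATB1, BACH2, FOXP1 and KLF2 are higher in every naive-like library than in any library of the other classes.

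The plot of levels shows these factors beside the receptors described next, with activated-marked and cytotoxic-marked T cells as further classes. Among 12 receptors for homing and naive T cell upkeep, 5 were higher in naive-like than in other T cells and 1 was lower, with a median log2 fold change of 0.70. IL7R was at 3.17, 1.58 and 1.96 in naive-like cells and at 1.17, 1.03 and 1.02 in other T cells, without overlap (log2 fold change 1.10 ± 0.17, adjusted p = 0.000861 by edgeR). CD27, a costimulatory receptor, was at 0.432, 0.469 and 0.157 against 0.128, 0.106 and 0.0857 (1.86 ± 0.23).

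S1PR4, another sphingosine 1-phosphate receptor, was higher by 1.76 and IL6ST, the shared subunit of interleukin 6 receptors, by 0.97. Neither passed without the d7 library (adjusted p = 0.0813 and 0.521). ITGAE, which binds E-cadherin and holds T cells in the epithelium, was at 0.254, 0.156 and 0.863 in naive-like cells and at 0.672, 0.531 and 1.02 in other T cells. Its groups overlapped through the d21 value, its log2 fold change was −1.16 ± 0.27, and without d7 it did not pass either (adjusted p = 0.198). CD28, CXCR4, ITGA4, ITGB7, CCR9 and IL4R did not pass. With cells of other-type UMIs left out, 2 receptors of the list were higher and 2 lower, and IL7R (adjusted p = 0.166), CD27 (0.0607) and S1PR4 (0.334) no longer passed.

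Genes for survival and quiescence were split. Of 10, 4 were higher in naive-like than in other T cells, 2 lower, and the median was 0.33. BTG1, an antiproliferative gene, was at 7.78, 7.97 and 6.82 in naive-like cells and at 4.35, 4.75 and 5.29 in other T cells (0.76 ± 0.13), without overlap. TSC22D3, a glucocorticoid-induced gene, PIK3IP1, an inhibitor of PI3 kinase, and LTB (lymphotoxin beta) were higher by 0.85, 1.11 and 1.03, and TXNIP and TOB1 were lower, with log2 fold changes of −0.85 and −1.15. The survival gene BCL2 had 2.30, 1.83 and 1.73 in naive-like cells against 2.56, 0.967 and 2.14 and did not pass. Without d7, TSC22D3 (adjusted p = 0.161), TXNIP (0.0501), PIK3IP1 (0.539) and TOB1 (0.758) did not pass, and neither did BTG1 (0.0577) and TOB1 (0.0578) without d14 or PIK3IP1 (0.0868) and TOB1 (0.0808) without d21. With cells of other-type UMIs left out, 1 of the 10 genes was higher and 1 lower, and BTG1 (adjusted p = 0.0852), PIK3IP1 (0.166) and LTB (0.343) no longer passed. At 1000 UMIs per cell 2 were higher, without BTG1 (0.153) and PIK3IP1 (0.301). TOB1 kept its call in only 1 of 10 alternative settings.

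The T cell receptor signalling list had 11 tested genes, of which 7 were higher in naive-like than in other T cells and 1 lower, with a median of 0.82. LAT, the adaptor that links the receptor to its downstream enzymes, was at 1.68, 2.35 and 2.35 in naive-like cells and at 0.664, 0.972 and 1.01 in other T cells, without overlap (log2 fold change 1.33 ± 0.14, adjusted p = 4.32e-05 by edgeR). CD5, a negative regulator of receptor signals, was at 1.56, 1.32 and 0.941 against 0.519, 0.751 and 0.688 (1.22 ± 0.18). CD7 was at 2.79, 1.43 and 0.941 against 0.877, 0.355 and 0.306 (1.84 ± 0.22). Naive-like and other T cells did not overlap for these genes. CD247 and CD2 were higher by 1.02 and 0.82, and the kinase LCK by 0.72, which turned to −0.06 when cells with other-type UMIs were left out. CD96, an immune receptor of T and natural killer cells, was lower (−1.58 ± 0.34). CD2, LCK and CD96 did not pass without d7 (adjusted p = 0.404, 0.211 and 0.198), nor CD247 without d14 (0.0508).

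The count of higher genes in this list fell to 1 when those cells were left out, to 3 at 1000 UMIs per cell, to 3 without the library block and to 4 without d7, and LAT and CD5 then had adjusted p = 0.0994 and 0.152 in the first of these settings. The rule asks for at least 1 CD3 UMI in both classes, and other T cells had CD3E levels of 3.67, 5.14 and 5.38 against 6.05, 6.52 and 6.82 in naive-like cells. The part of depth and of mixed barcodes in these differences was not tested beyond the settings given.

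Coreceptor RNA of both lineages was found in naive-like cells. CD4 (chromosome 5, 63892129 to 63918547), the coreceptor of helper T cells, was at 0.793, 0.380 and 0.157 in naive-like cells at d7, d14 and d21, and at 0.211, 0.286 and 0.255 in other T cells. The naive-like value was higher at d7 and d14 and lower at d21, so that the groups overlapped. The log2 fold change was 1.35 ± 0.29 (adjusted p = 0.00609 by edgeR), and it was 0.31 (adjusted p = 0.686) without d7. CD8B was at 0.267, 0.737 and 0.706 against 0.147, 0.479 and 0.319 (0.88 ± 0.31, adjusted p = 0.0575) and CD8A at 0.476, 0.737 and 1.57 against 0.575, 1.13 and 1.27, and neither passed. CD8A was lower, by edgeR, at 1000 UMIs per cell (−1.43, adjusted p = 0.000858) and with mixed barcodes left out (−1.25, 0.00123). CD8B was higher by DESeq2 (adjusted p = 0.0469), with no filter on low counts (0.025) and with at least 3 UMIs over LEF1, CCR7 and S1PR1 (0.0266).

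RUNX3, the factor of the cytotoxic lineage, was at 0.673, 0.938 and 2.59 in naive-like cells against 1.90, 2.04 and 3.17 in other T cells. It was lower in each library (−1.02 ± 0.21, adjusted p = 0.00505), although the high d21 value overlapped with the other class, and 15 of its 33 UMIs at d21 came from 1 cell. Without d7 its adjusted p was 0.0813. GATA3, a factor of helper T cells, was at 0.920, 0.849 and 2.82 against 0.604, 0.628 and 0.632 (1.00 ± 0.25), and TOX was higher by 0.67 ± 0.20, which did not pass without any 1 of the libraries (adjusted p = 0.0669 to 0.128). GATA3 did not pass after leaving out cells with other-type UMIs (adjusted p = 0.345) or at 1000 UMIs per cell (0.335). Of 5 genes for gamma delta T cells, SOX13, BLK, CD163L1, ID3 and MAF, none passed. BLK was lower, by edgeR, at 1000 UMIs per cell (−2.49, adjusted p = 0.00756). It was also lower with at least 3 UMIs over LEF1, CCR7 and S1PR1 (−1.11, adjusted p = 0.0431).

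Of 18 cytotoxic genes, 7 were lower in naive-like than in other T cells, 1 was higher and 10 did not pass, with a median log2 fold change of −1.44, or −1.29 with FASLG, which had 0 UMIs, at the bound that 3 counts allow. The chemokine CCL5 was at 5.79, 4.67 and 38.9 in naive-like cells and at 30.7, 52.0 and 72.7 in other T cells (−2.05 ± 0.36, adjusted p = 0.00166 by edgeR). The d21 value lay among those of the other T cells, the other naive-like values below. GNLY (granulysin) was at 0.508, 0.179 and 3.76 against 4.78, 7.08 and 6.65 (−2.73 ± 0.82), and 40 of its 48 UMIs at d21 came from 1 cell. KLRB1 was at 0.171, 0.112 and 0.392 against 0.624, 0.721 and 0.323 (−1.87 ± 0.30). GZMA, NKG7, FCER1G and PRDM1 were lower as well, with log2 fold changes of −2.83, −1.05, −1.15 and −1.43.

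CTSW, a cathepsin of cytotoxic cells, was the gene called higher (0.55 ± 0.14), but it stood at −0.02 at 1000 UMIs per cell and at −0.25 with mixed barcodes left out, and it did not pass without d14 (adjusted p = 0.199). GNLY, GZMA and NKG7 did not pass without d7 (adjusted p = 0.0881, 0.0597 and 0.0924) or without d14 (0.137, 0.0723 and 0.144), nor PRDM1 without d7 (0.364) or d21 (0.14). The count of lower genes was 10 of 16 tested at 1000 UMIs per cell, 10 of 17 with mixed barcodes left out and 9 of 18 without d21, and in each of these settings GZMB (granzyme B), PRF1 (perforin) and the factor TBX21 were among them, GZMB with log2 fold changes of −3.16, −2.28 and −3.97. Without the library block, none of the 18 genes was lower, and CCL5 then had an adjusted p of 0.231.

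The share of cells with a UMI gives the same genes a background. Free RNA in the droplets gives UMIs to cells that do not express a gene, and epithelial cells (EPCAM present, no CD3) served to show its size, with medians of 4863, 6069 and 3484 UMIs at d7, d14 and d21. After thinning to 1000 UMIs, CCL5 was found in 20.2%, 19.8% and 66.7% of naive-like cells and in 19.3%, 19.5% and 59.5% of epithelial cells. GNLY was found in 4.53%, 5.81% and 9.09% of naive-like and in 5.23%, 5.63% and 5.76% of epithelial cells. CCL5 and GNLY were thus close to background in naive-like cells in the 3 libraries, d21 included. Unthinned, CCL5 was in 46.2%, 58.1% and 97.2% of naive-like against 59.2%, 64.4% and 97.6% of epithelial cells.

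TCF7 was found in 41.4%, 30.2% and 18.2% of thinned naive-like cells against 6.62%, 1.32% and 3.24% of epithelial cells. KLF2 was in 36.6%, 55.8% and 39.4% against 9.93%, 7.95% and 5.28%, and IL7R in 31.1%, 16.3% and 18.2% against 2.96%, 0.993% and 0.960%. These genes stood above background in each library. CD4 was in 10.3%, 2.33% and 3.03% against 0%, 0% and 0.240%. Without thinning, TCF7 was in 79.3%, 66.3% and 44.4% of naive-like cells and in 27.5%, 16.3% and 15.2% of epithelial cells. For the shares, 331 of 353, 86 of 86 and 33 of 36 naive-like cells reached 1000 UMIs.

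**Figure D3:**
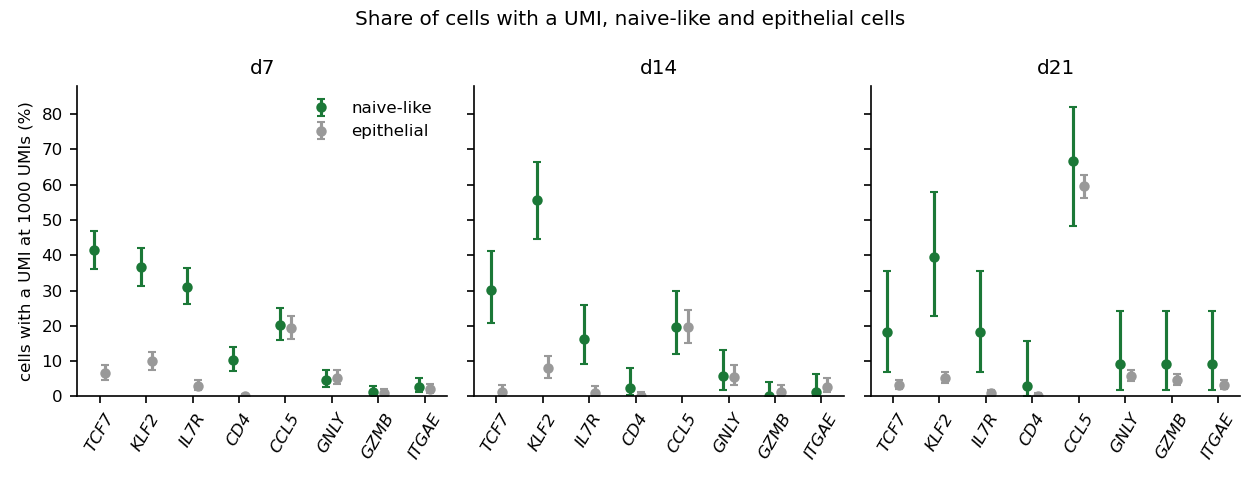
Percent of cells with at least 1 UMI of a gene after thinning to 1000 UMIs, in naive-like and in epithelial cells at d7, d14 and d21. TCF7, KLF2 and IL7R lie above the epithelial share in each library, whereas CCL5 and GNLY lie close to it.

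The plot of shares with a UMI puts ITGAE, GZMB and CCL5 beside the naive genes. ITGAE was in 2.72%, 1.16% and 9.09% of naive-like cells and in 2.09%, 2.65% and 3.24% of epithelial cells. For GZMB, 55 of 72 UMIs of the naive-like cells at d21 came from 1 cell.

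Of 8 genes of type 17 cells and innate lymphoid cells, 6 were lower in naive-like than in other T cells, with a median of −2.36. Interleukin 22 (IL22) was at 0, 0.0223 and 0.235 against 0.164, 0.724 and 1.21, and IL17A at 0.0254, 0 and 0 against 0.183, 0.431 and 0.254. Their log2 fold changes were −4.38 ± 0.80 (adjusted p = 0.00202 by edgeR) and −4.06 ± 1.01 (adjusted p = 0.0122). IL17F, IL23R, KIT and AHR were lower as well, and RORA and CCR6 did not pass. Without the library block none of the 8 passed. IL17F, IL23R, KIT and AHR also missed the threshold without d7, with adjusted p of 0.317, 0.217, 0.287 and 0.295, and IL17F without d14 (0.133).

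Of 15 genes of T cell activation and regulation, IL10, LAG3 and TNFAIP3 were lower and none was higher (median −0.40). LAG3 did not pass without d7 (adjusted p = 0.212), IL10 without d14 (0.0671) and TNFAIP3 without either (0.141 and 0.0667). The immediate early genes FOS, JUN and JUNB and the activation marker CD69 did not pass with the 3 libraries. Without d7 these 4 genes were higher in naive-like cells, by 0.55, 0.72, 0.74 and 1.41, and IL10 alone was lower, so that the balance of the list turned. CD69 was also higher by DESeq2 (0.96, adjusted p = 0.0293). MKI67 was the only one of 7 proliferation genes to pass (−0.72 ± 0.22), and it did not pass without any 1 of the libraries (adjusted p = 0.0624 to 0.285). Other members passed in some settings. STMN1 was higher without d14 (0.84, adjusted p = 0.0381 by edgeR), where none was lower. PCNA was lower without d7, and TOP2A and CENPF without d21 and with at least 3 UMIs over LEF1, CCR7 and S1PR1. The summed level of the 7 genes was 13.55, 7.10 and 21.88 in naive-like cells against 11.13, 15.57 and 18.26 in other T cells. Ribosomal protein genes were higher in 71 of 78 tested, with a median of 0.58, and this count was 10 without d14, 44 without d7 and 30 without the library block.

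Of the genes of other cell types, all 6 epithelial genes were lower in naive-like than in other T cells (median −2.93), as were 3 of 3 plasma cell genes, 2 of 3 B cell, 5 of 9 myeloid and 4 of 5 stromal genes and the hemoglobin gene HBB. None of 2 endothelial genes passed, and no gene of these lists was higher. The summed level of the epithelial list was 10.6, 0.469 and 1.41 in naive-like cells at d7, d14 and d21, led by KRT8 at 4.61 at d7, where 70.8% of the UMIs came from 1 cell. At d14 the naive-like cells had summed levels of 14.0 for the stromal, 11.8 for the myeloid and dendritic and 21.4 for the B cell list, the last nearly all CD74, against 27.5, 30.3 and 48.9 in other T cells of that library. HBB was at 22.3 at d7, 0 at d14 and 0.0784 at d21, against 50.02, 0.00687 and 3.57 in other T cells. At least 2 UMIs of other types were found in 45.9%, 40.7% and 41.7% of naive-like cells and in 47.0%, 56.2% and 51.8% of other T cells. With these cells left out, CDH1 turned to 0.79 and COL1A1 to 0.93, 0 of 5 tested epithelial genes passed and 802 genes in all passed in place of 2359. The setting removes cells by UMIs of other-type genes, so its values for those genes, here and in the other contrasts, are shaped by the filter itself. For the remaining genes, the part of foreign RNA in the contrast with other T cells was not tested beyond this setting.

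Activated-marked T cells, with at least 2 UMIs over TNFRSF4, TNFRSF18 and ICOS and at most 1 over the cytotoxic genes, were the second class compared. They numbered 626, 1751 and 660 cells at d7, d14 and d21 and had medians of 5320, 4654 and 3391 UMIs, which is deeper than naive-like cells in each library. Of 12402 genes, 703 were higher in naive-like cells (5.67%) and 969 lower (7.81%) by edgeR, or 13.5% in all, with a median of −0.05 over all genes. By DESeq2 the split was 925 higher and 765 lower. Without d7 551 genes passed in all, and without d14 443.

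Of the naive transcription factors, 6 of 10 were higher than in activated-marked cells, with a median of 0.89, although SATB1 and FOXP1 missed the threshold without d7 (adjusted p = 0.0706 and 0.0522), BACH2 without d14 (0.192) or d21 (0.055) and IKZF1 without any 1 of the libraries (0.0572 to 0.711). KLF2, at 1.67, 1.16 and 1.36 in activated-marked cells, was higher by 2.34 ± 0.19 (adjusted p = 1.49e-05), and TCF7, at 1.60, 0.965 and 0.900, by 1.61 ± 0.18 (adjusted p = 0.00013). For both genes the classes did not overlap. IL7R did not pass here (0.40 ± 0.17, adjusted p = 0.14), and neither did LAT (0.16), CD5 (−0.13) or CD4 (−0.54 ± 0.28), for which activated-marked cells had 0.686, 1.04 and 0.879. CD4 was lower in naive-like cells when d7 was left out (−1.65 ± 0.30, adjusted p = 0.00276 by edgeR). T cell receptor genes were split, with 3 of 11 higher, 1 lower and a median of −0.08. CD7 was higher by 2.62 ± 0.23.

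Type 17 and activation genes had the lowest medians of all lists in this contrast. Of 8 type 17 genes, 7 were lower in naive-like cells (median −3.28), with log2 fold changes of −6.61, −6.44, −6.15 and −4.83 for IL17A, IL17F, IL22 and IL23R. IL17A was at 2.50, 1.60 and 0.842 in activated-marked cells, where naive-like cells had 0.0254, 0 and 0. Of 15 activation and regulation genes, 10 were lower (median −2.16). The rule itself set the 2 classes apart by activation genes, with at most 1 UMI against at least 2. Lower values of related genes are thus no independent support for the label. LAG3, a checkpoint receptor, was at 0.0381, 0.290 and 0.470 against 2.17, 4.71 and 3.04 (−4.51 ± 0.31, adjusted p = 4.66e-06 by edgeR). IL10, an inhibitory cytokine, was at 0.0444, 0.0670 and 0.314 against 1.57, 2.58 and 3.24 (−4.79 ± 0.42).

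The 2 classes did not overlap for LAG3 or IL10. CTLA4, TIGIT and PDCD1, further checkpoint receptors, had log2 fold changes of −4.31, −3.66 and −2.78. The interleukin 2 receptor IL2RA was at −2.58, the factor BATF at −2.79 and the regulatory T cell factor FOXP3 at −2.16. FOXP3 had an adjusted p of 0.0602 without d7. Proliferation genes were lower in 6 of 7 (median −0.95), led by PCNA (−1.38 ± 0.22), which passed under each of 10 alternatives. Without d14, PCNA alone passed, without d7 4 of 7 did, and with mixed barcodes left out 2 of 7. KLF2, TCF7, CD7, LAG3, IL10, CTLA4, TIGIT, PDCD1, IL2RA, BATF, IL17A, IL17F, IL22 and IL23R passed under each of the 10 alternatives. Of the other-type lists, 3 of 6 epithelial, 2 of 3 plasma cell, 1 of 3 B cell, 0 of 9 myeloid and 0 of 5 stromal genes were lower here, and the epithelial genes, EPCAM, KRT19 and OLFM4, turned to 0.44, 0.68 and 0.28 with mixed barcodes left out. None of the myeloid and stromal genes passed as higher either, with medians of 0.49 and 0.74, but without d7 2 of 10 myeloid and 3 of 5 stromal genes were higher in naive-like cells, and with no filter on low counts 3 of 10 and 2 of 5. Of the 18 cytotoxic genes, 6 were lower and CTSW and GZMM higher (median −1.19, or −1.02 with FASLG at its bound), and GZMM did not pass without d14 (adjusted p = 0.0679).

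Cytotoxic-marked T cells, with at least 2 UMIs over XCL1, KLRK1, CRTAM and ZNF683 and at most 1 over the activation genes, were the third class, with 1430, 1992 and 4446 cells at d7, d14 and d21 and medians of 3792, 4074 and 4628 UMIs. Of 12402 genes, 660 were higher in naive-like cells (5.32%) and 815 lower (6.57%) by edgeR, or 11.9% in all, with a median of −0.03 over all genes, and DESeq2 gave 895 and 693. Without d7 615 genes passed in all, and without d14 701.

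Naive transcription factors were higher in 7 of 10 (median 1.09), of which SATB1, FOXO1 and IKZF1 missed the threshold without d7 (adjusted p = 0.0971, 0.119 and 0.434) and FOXO1 and IKZF1 also without d21 (0.095 and 0.0971). KLF2 had 2.00, 2.00 and 1.13 in cytotoxic-marked cells and was higher in naive-like cells by 2.11 ± 0.18 (adjusted p = 1.21e-05), and FOXP1 by 1.55 ± 0.13. TCF7 was closer than in the other contrasts, since cytotoxic-marked cells had 2.09, 1.73 and 1.84 (0.87 ± 0.18, adjusted p = 0.00474), and it missed the threshold without d7 (0.0593) or d14 (0.0565). IL7R was at 0.666, 0.396 and 0.282 in cytotoxic-marked cells (2.37 ± 0.18, adjusted p = 4.49e-06). CD4 was at 0.0344, 0.0328 and 0.0219 there, below every naive-like value (4.41 ± 0.34, adjusted p = 4.49e-06). CD5, LAT and IL6ST were higher by 1.75, 1.74 and 1.95, and FOXP3, at low counts, by 2.92.

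Cytotoxic genes were lower in 11 of 18, with a median of −2.71, or −2.34 with FASLG at its bound. Here too the rule set the 2 classes apart by cytotoxic genes, so lower values of related genes are no independent support for the label. CCL5 was at 134, 165 and 188 in cytotoxic-marked cells, above every naive-like value (−3.89 ± 0.39, adjusted p = 2.67e-05). GNLY, GZMA, NKG7 and the factor TBX21 were lower, with log2 fold changes of −4.88, −4.01, −2.96 and −2.97. XCL1 and KLRK1, which defined the class, are not counted. CD96 was at −3.31, RUNX3 at −1.86 and ITGAE at −2.57, the last with levels of 1.92, 1.51 and 1.93 in cytotoxic-marked cells against 0.254, 0.156 and 0.863. Proliferation genes were lower in 6 of 7 (median −1.34), with MKI67 at 0.381, 0.223 and 0.706 against 1.35, 0.852 and 1.27 (−1.62 ± 0.21). The classes did not overlap for ITGAE or MKI67. Of the activation genes, 5 were higher and 2 lower, and FOS, JUN and JUNB, among the higher ones, did not pass without d14 (adjusted p = 0.182, 0.159 and 0.129) or without d21 (0.0846, 0.314 and 0.144). Of the other-type lists, 0 of 6 epithelial genes passed, 2 of 3 plasma cell genes were lower (median −1.26), 1 of 2 endothelial genes was lower and 1 of 5 stromal genes higher. The stromal count was 3 higher without d7 and 1 lower without d14. Ribosomal genes were higher in 5 of 78 by edgeR and in 36 of 78 by DESeq2.

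**Figure D4:**
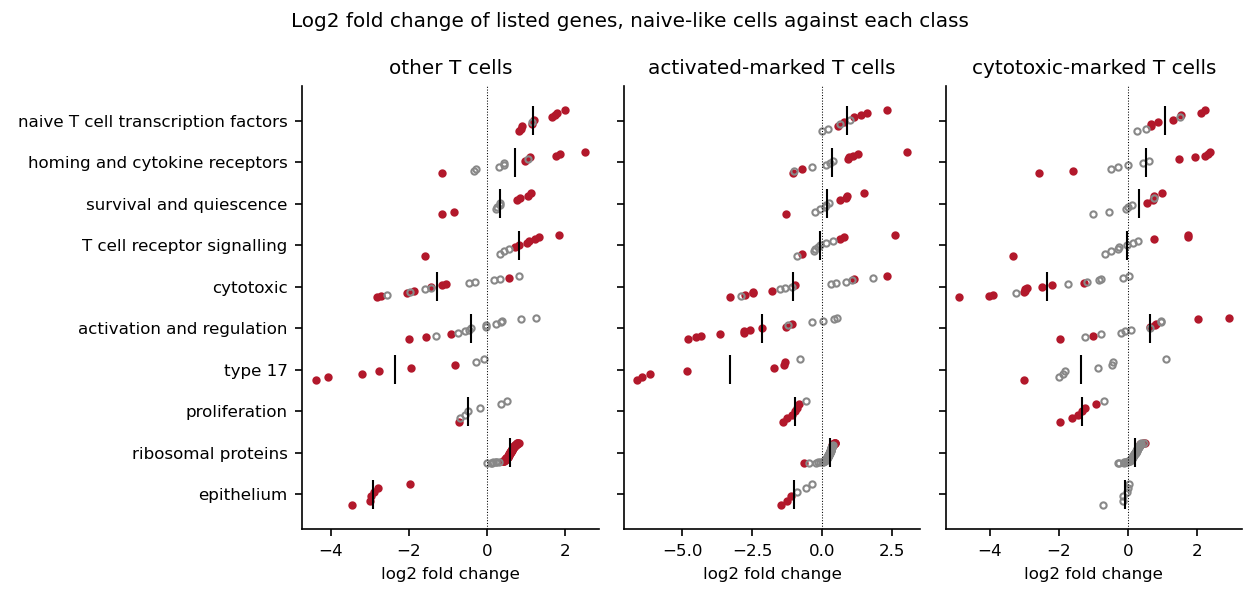
Log2 fold change of each tested gene, by gene list, in naive-like cells against other, activated-marked and cytotoxic-marked T cells. Filled points passed edgeR at an adjusted p under 0.05, open points did not, and the bar is the median of the list with genes at 0 UMIs set to their bound. Naive transcription factors lie above 0 in the 3 contrasts, with medians of 1.17, 0.89 and 1.09.

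The plot of lists shows the epithelial list with a median of −2.93 against other T cells and of −0.08 against cytotoxic-marked cells. The 3 contrasts share the naive-like libraries. Called higher against each class were 230 genes, among them the listed BACH2, BTG1, FOXP1, IKZF1, IL6ST, KLF2, S1PR4, SATB1, TCF7 and TSC22D3. Called lower against each class were 175, of which CCL5, GZMA, ITGAE, JCHAIN, KIT, KLRB1, MKI67, NKG7, RUNX3 and TXNDC5 were listed. Of the genes named here, KLF2, CCL5 and KLRB1 passed in the 3 contrasts with any 1 library left out, and the others lost at least 1 call.

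The largest rises outside the lists came from genes of low level. SGCA, which encodes a sarcoglycan, was among the 10 largest rises against each class, with 48 UMIs in the naive-like cells of the 3 libraries and levels of 0.209, 0.156 and 0.627, and it missed the threshold against activated-marked cells without d14 (adjusted p = 0.0568). GCNT4, a glycosyltransferase, was so too, with 102 UMIs and levels of 0.565, 0.201 and 0.314 against 0.0851, 0.0255 and 0.0280 in other T cells (2.89 ± 0.40). PDK1, a kinase of energy metabolism, was at 1.90, 1.07 and 0.627 in naive-like cells, against 0.302, 0.179 and 0.153 in other T cells and at a pooled level of 0.0655 in cytotoxic-marked cells. Its log2 fold change was 2.59 ± 0.19 (adjusted p = 4.87e-06) against the former and 3.94 ± 0.20 (adjusted p = 7.96e-08 by edgeR) against the latter.

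DAPL1 had the most UMIs of the 10 largest rises against other T cells, 520 in all, with levels of 2.61, 2.23 and 0.706 against 0.530, 0.322 and 0.165 (2.61 ± 0.23, adjusted p = 1.23e-05). PDK1 and DAPL1 were higher in each naive-like library and lowest at d21. ANGPT2, an angiopoietin, was at 1.14, 1.16 and 0.157 in naive-like cells, with 121 of 353, 22 of 86 and 2 of 36 cells positive, and was higher by 3.26 ± 0.45 than in activated-marked and by 4.18 ± 0.46 than in cytotoxic-marked cells. CCR4, a chemokine receptor of helper T cells, was at 0.273, 0.469 and 0.471 and higher by 3.55 ± 0.38 than in cytotoxic-marked cells. The 10 largest falls of each contrast were genes with 0 UMIs in naive-like cells. Each bound sets the level of the other class, with its libraries weighted by the UMIs of the naive-like cells, against the level that 3 counts over the naive-like cells would give, 0.0139. These genes were at least 4.87-fold to 16.6-fold lower than in other T cells, the last being SLC51A. That bound rests on d7, where other T cells had SLC51A at 0.315 and a summed epithelial level of 74.2, against 0.00491 and 0.00262 for SLC51A at d14 and d21, and SLC51A did not pass by DESeq2 (adjusted p = 0.104). For activated-marked cells the bounds ran from 3.02 to 8.64 (TG) and for cytotoxic-marked cells from 2.33 to 10.9 (LOC106507518), and neither TG nor LOC106507518 passed in its contrast without d7.

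Within the naive-like cells, 111 of 511 held CD4 and no CD8B (21.7%), 46 held CD8B and no CD4, 5 held both (0.978%) and 349 neither (68.3%). Since both genes were below 1 UMI per 10000, a cell without a UMI of either may still express one of them. At d7, 25.5% of naive-like cells held CD4 only (exact 95% interval 21.0 to 30.4) and 7.37% CD8B only (4.87 to 10.6). The d14 library had 14.0% (7.42 to 23.1) and 18.6% (11.02 to 28.4). CD4-only cells were thus more frequent than CD8B-only cells at d7, whereas the intervals overlapped at d14, and d0, d1 and d21 held 5, 2 and 2 CD4-only and 1, 0 and 3 CD8B-only cells.

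Genes that had no part in this split differed between its sides. In the 90 CD4-only and 26 CD8B-only cells of d7, CD8A was at 0.134 (0.0491 to 0.291) and 3.61 (2.59 to 4.90), and in the 12 and 16 cells of d14 at 0.205 and 2.55. CTSW was at 3.73 (3.18 to 4.34) against 7.75 (6.22 to 9.55) at d7 and at 2.46 against 6.73 at d14. GZMM (granzyme M) was at 0.0446 against 1.41 at d7 and at 0 against 1.27 at d14. CD8A, CTSW and GZMM were higher on the CD8B side in both libraries, with intervals apart at d7.

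RUNX3 was at 0.290 against 2.12 and NKG7 at 0.312 against 3.52 at d7, and at d14 their values of 0.820 against 1.00 and 0.615 against 1.09 were within counting error. On the CD4 side at d7 were IL7R (3.66 against 1.76), IL6ST (2.92 against 0.793), CD5 (2.01 against 0.617) and TCF7 (5.87 against 3.44), with intervals apart. At d14 TCF7 was at 2.87 against 3.73 and IL7R at 1.23 against 1.27, so that the difference was not seen there. KLF2 was at 6.18 (5.47 to 6.96) and 7.49 (5.98 to 9.26) at d7. CCL5 was at 1.43 against 39.4 at d7, where 232 of 447 UMIs on the CD8B side came from 1 cell, and at 1.64 against 1.73 at d14.

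**Figure D5:**
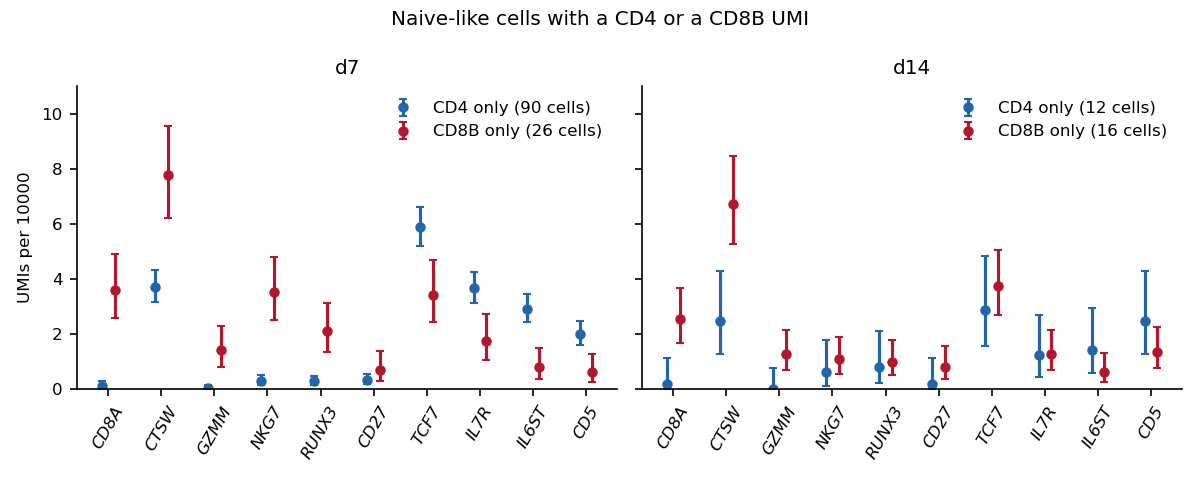
Levels (UMIs per 10000 UMIs) of genes in naive-like cells with CD4 only and with CD8B only, at d7 (90 and 26 cells) and d14 (12 and 16 cells). Bars are exact Poisson 95% intervals, which cover counting error only, and CD8A, CTSW and GZMM are higher with CD8B at both ages.

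The plot of the CD4 and CD8B sides shows that the intervals at d14 are wide, with 48762 UMIs on the CD4 side and 109967 on the CD8B side. Naive-like cells with and without a CCR7 UMI were set side by side. At d7, CCL5 was at 2.94 (2.65 to 3.27) in 253 cells with CCR7 and at 14.8 (13.6 to 16.1) in 100 cells without, 232 of the 559 UMIs of the latter being from 1 cell. NKG7 was at 0.626 against 1.72 and KLF2 at 7.11 against 4.70. At d14 CCL5 was at 1.75 against 10.1 without overlap of the intervals. NKG7 was then at 0.688 (0.420 to 1.06) against 1.15 (0.680 to 1.81) and KLF2 at 8.15 (7.14 to 9.25) against 10.1 (8.62 to 11.8), and these intervals overlapped. TCF7 was at 5.14 (4.74 to 5.56) against 4.59 (3.93 to 5.33) at d7, and these intervals overlapped.

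Ages were compared without a test, as each is 1 library. Of genes with at least 20 UMIs over the 2 libraries compared, 2283 of 7198 (31.7%) were at least 2-fold higher and 493 (6.85%) at least 2-fold lower at d7 than at d0 (38.6% in either direction), on a scale with 0.1 added to both levels, which understates changes of low genes. Only 20 cells with 98031 UMIs stood for d0, against 1575496 UMIs at d7. A gene could thus reach 20 UMIs through d7 alone and count as higher for lack of a few UMIs at d0. The same limit holds for falls to d21, where naive-like cells held 127520 UMIs. From d7 to d14, 261 of 7781 (3.35%) were higher and 365 (4.69%) lower (8.05% together), and from d7 to d21, 359 of 7257 (4.95%) were higher and 1029 (14.2%) lower (19.1% together). These balances depend on the value added: with 1 per 10000 added, 146 were higher and 148 lower at d7 than at d0, 55 and 12 at d14 than at d7, and 74 and 19 at d21 than at d7.

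Between d0 and d7, 6 of 10 T cell receptor signalling genes were at least 2-fold higher and none lower, with a median log2 ratio of 1.44, against 0.60 for the same genes in other T cells and 0.48 over all genes of naive-like cells. The d0 cells differed in other measures too. Mitochondrial genes took 16.3% of their UMIs against 6.05% at d7, the summed epithelial level was 50.6 against 10.6, and 1 cell held 21161 of their 98031 UMIs. The part of these in the ratios was not tested for the list. With mitochondrial counts out of the denominator, 2126 genes in all were at least 2-fold higher and 607 lower at d7. CD247 went from 0.714 to 2.67, LCK from 0.612 to 2.15 and LAT from 0.408 to 1.68. Of 9 naive transcription factors, 5 were at least 2-fold higher, FOXP1 among them (0.714 and 2.81). Of 9 cytotoxic genes, 7 were higher and 1 lower (median 1.69, against −0.74 in other T cells). Among the higher ones, GZMB, GZMM and KLRB1 were at 0 at d0 and at 0.165, 0.222 and 0.171 at d7. These d7 levels are below the 0.306 that 3 counts give at d0, so the rises cannot be told from counting error. Myeloid and dendritic genes were higher in 5 of 5 (median 1.97, against 2.97 in other T cells), of which LYZ, CD14, FCN1 and S100A9 were at 0 at d0. Proliferation genes were higher in 5 of 7 (2.09 against 1.14). Activation genes (1 of 8 higher, 4 lower, median −1.24) and epithelial genes (1 of 6 higher, 3 lower, −1.40) mostly went the other way. Of the 78 ribosomal genes, 0 passed 2-fold in any of the 3 ratios.

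Between d7 and d21, 7 of 8 activation genes were at least 2-fold higher in naive-like cells, with a median log2 ratio of 1.47 against 0.31 in other T cells. JUNB was at 4.09, 11.3 and 15.4 at d7, d14 and d21, and it was also high at d0 and d1, at 15.4 and 18.0. CD69, an early activation marker that opposes S1PR1 at the cell surface, was at 2.96 at d0, 1.05 at d1, 0.374 at d7, 0.960 at d14 and 2.20 at d21, where 13 of 28 UMIs came from 1 cell. Both genes were lowest at d7. RORA was at 0.647, 0.603 and 3.21 and GATA3 at 0.920, 0.849 and 2.82 at d7, d14 and d21, where the d21 values were the highest.

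The 36 naive-like cells of d21 went against their label in several genes. RUNX3 was at 2.59, against 0.673 in naive-like cells of d7 and 3.17 in other T cells of d21, and HMGB2, a gene of dividing cells, was at 12.5 against 5.55 and 9.50. Of the 7 proliferation genes, 3 were at least 2-fold higher at d21 than at d7. STMN1, PCNA and TYMS were lower at d21, at 4.00, 0.627 and 0.314 against 4.79, 0.844 and 0.565 at d7. A single cell held 63 of the 279 UMIs of this list at d21. CCL5 was at 38.9 against 5.79 and 72.7, in a library where epithelial cells held CCL5 nearly as often as naive-like cells. TCF7 was lower at d21 (2.20) than at d7 (5.01), and KLF2 was at 6.59 and 6.53. Among the 10 largest rises from d7 to d21 were GZMB (0.165 to 5.65), CCL5, CST7 (0.146 to 1.49) and SIK1 (0.0571 to 0.941). The cell richest in each gene held 55 of 72 GZMB, 15 of 33 RUNX3 and 119 of 496 CCL5 UMIs at d21. Among the largest ratios of the other comparisons of ages were markers of other cell types. HBB went from 0.102 at d0 to 22.3 at d7 and to 0 at d14, KRT8 from 4.61 at d7 to 0.0447 at d14, and the collagen gene COL4A1 from 0.00635 at d7 to 4.53 at d14. HBB moved in the same directions in other T cells. The part of such RNA in the ratios between ages was not tested.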

How the data were processed

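A single droplet library (10x Genomics, 3′ ends) was made from the pooled cells of 5 piglets at each of 5 ages. The deposited values are raw UMI counts of 20648 genes in each barcode, made by the authors with Cell Ranger 3.1.0 and not normalized. The submitters' processing notes also name STAR and susScr11, and the paper names Sscrofa11.1. The paper describes a forced number of cells that the matrices exceed, and it removed cells under 200 genes, as was done here. The tissue was taken apart with EDTA and trypsin. The libraries of d0, d1, d7, d14 and d21 kept 15218, 14142, 10272, 16177 and 16892 cells.

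The members, the gene lists and the comparisons were chosen with earlier results of these data known. Classes were defined by UMIs of 14 rule genes, which were left out of every test. Counts were summed per library and class and fitted with edgeR 4.0.16 in R 4.3.3 (TMM, low counts filtered, quasi-likelihood test, library as block), over the 3 libraries in which each of 4 classes had at least 20 cells, with Benjamini-Hochberg adjustment over 12402 genes. All classes shared 1 estimate of the spread, with 6 residual degrees of freedom. The block was chosen because each library holds every class. The libraries are single pools, so the p-values measure the spread between these libraries only.

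All listed genes were reported as counts, and beyond them the 10 largest rises and falls per comparison among genes that passed and moved the same way in each library. For ages, a gene needed 20 UMIs, and 0.1 per 10000 was added to both levels. Shares have exact Clopper-Pearson and levels exact Poisson 95% intervals (SciPy 1.17.1), which cover counting error only. Gene positions were matched by symbol to RefSeq for all 20648 genes, and 245 of 249 listed genes were found. The gene lists covered naive T cell factors, homing, survival, receptor signalling, the CD4 and CD8 lineages, gamma delta and thymocyte genes, cytotoxic, activation, type 17, proliferation and ribosomal genes, and the markers of B, plasma, myeloid, epithelial, stromal, endothelial and erythroid cells. Alternatives were DESeq2 1.42.0, no filter on low counts, no library block, each library left out, cells thinned to 1000 or 2000 UMIs, a limit of 20% mitochondrial UMIs, cells with at least 2 UMIs of other cell types left out, and other thresholds of the rule. For the cells left out, UMIs were counted over the epithelial, plasma cell, stromal, endothelial, erythroid and myeloid lists together, without CST3 and CALD1. Doublets were not called. Results for some genes of the lists are not reported here, although the counts and medians of the lists include them.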

Additional observations from a re-analysis of the deposited data

Results flagged for a closer look

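At d1, 142 cells met the condition on LEF1, CCR7 and S1PR1 without a CD3E or CD3G UMI, against 16 naive-like cells in that library, and were set apart because no comparison used them. They held 56.2 UMIs of the 5 endothelial genes per 10000, with PLVAP at 30.1 and PECAM1 at 20.8, and CD7 and CD2 at 0.0361 and 0.00901. Their median was 5244 UMIs. The other libraries held 10 such cells at d0, 104 at d7, 20 at d14 and 8 at d21. The d7 cells had PLVAP at 0.296, TCF7 at 2.75 and a median of 942 UMIs.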

How the results depend on the processing

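Against other T cells the count of called genes went from 2359 to 386 (232 higher and 154 lower) without the library block, 830 after thinning to 1000 UMIs, 802 with cells holding UMIs of other types left out, and 498 to 1731 with 1 library left out. Against activated-marked cells it went from 1672 to 522 without the block, 697 after thinning and 443 to 1263 with 1 library left out, and against cytotoxic-marked cells from 1475 to 627, 785 and 615 to 1045. DESeq2 called 2042 of the 2359 genes (86.6%), 1440 of the 1672 and 1318 of the 1475. Its splits of 925 higher and 765 lower against activated-marked and 895 and 693 against cytotoxic-marked cells differ from the 703 and 969 and the 660 and 815 of edgeR, and the cause was not tested. The share of T cells moved beyond its interval after thinning to 1000 UMIs (0.466%, 0.637%, 3.77%, 0.340% and 0.108% in the order of age), after thinning to 2000 UMIs at d0 (1.29%) and d7 (7.52%), with mixed cells left out at d14 (1.63%), with at least 1 UMI of the 3 naive genes at d7 (10.8%), d14 (2.30%) and d21 (1.29%), and with at least 3 (1.25%, 1.38%, 7.35%, 0.918% and 0.199%). The d7 share was the highest under each of these settings. Counts of genes at least 2-fold apart between ages, 2776 for d7 against d0, 626 for d14 against d7 and 1388 for d21 against d7, became 294, 67 and 93 with 1 per 10000 added (146, 55 and 74 of them higher), 1615, 335 and 663 with 50 UMIs required, and 1097, 517 (109 higher and 408 lower) and 743 after thinning.

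The 251 calls of named genes gave 1893 results on the same side of the threshold, 534 that lost the call and 10 that turned sign. The block accounted for 150 of the lost calls, leaving out d7 for 112, d14 for 82 and d21 for 39, thinning for 55, mixed cells for 51 and DESeq2 for 23. With mixed cells left out, the log2 fold changes of CDH1, COL1A1, CTSW and LCK against other T cells became 0.79, 0.93, −0.25 and −0.062, those of EPCAM, KRT19 and OLFM4 against activated-marked cells 0.44, 0.68 and 0.28, and that of JCHAIN against cytotoxic-marked cells 0.26. CTSW stood at −0.018 after thinning, and CALD1 against cytotoxic-marked cells at −0.01 without d14 and at 1.17 without d7. With 20 and 16 cells, d0 and d1 allow only wide intervals. A gene with 0 UMIs in the naive-like cells of the fitted libraries may have a level of up to 0.0139.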
